A study of Cristatella mucedo with 12 samples.

Results

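MT_atp6 and MT_atp8 are the mitochondrial genes for 2 subunits of ATP synthase, and they are described here in the freshwater bryozoan Cristatella mucedo. They were taken by name from the deposited table: 2 of its 35949 gene models, and 2 of the 14 mitochondrial models that code for protein. Polyadenylated RNA from wildtype animals of isolate SBPEP1 was sequenced in 12 libraries. Of these, 4 libraries followed statoblasts that had been kept at -80 °C, with 1 library straight after thawing (freezer) and 1 each at day 2, day 4 and day 6 of differentiation at room temperature. The other 8 came from mature colonies, collected in a stream and held in an aquarium at room temperature. They were cut either into edge and central zones or, when elongated, into end and middle parts, with 2 libraries for each of the 4 pieces. The labels mention no treatment and no other genotype. The labels call the replicates biological but do not name separate colonies as their source, and p-values reflect the spread among these libraries. Each library is bulk RNA of a whole piece or stage, in which fewer mitochondria or cells of a type and less transcript in each cannot be told apart.

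ATP synthase, complex V of the respiratory chain, makes ATP from the proton gradient that complexes I, III and IV build across the inner mitochondrial membrane. Most of its subunits are nuclear genes. In most animals the mitochondrial genome keeps the genes for subunit a (atp6), which together with the ring of c subunits forms the path for protons, and for subunit 8 (atp8), a short membrane protein needed for assembly of the stator. Statoblasts are dormant capsules from which freshwater bryozoans found new colonies.

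The table places all 16 mitochondrial models on contig 594, which is 21003 bases long and holds no other model. MT_nad3_0 and MT_nad3_1 are separate models named for the same gene, nad3, and each counts as a gene among the 14 here. The build is not named in the sources used here. MT_atp8 (bases 15251 to 15412) has 162 bases, which is 54 codons with any stop codon, and is the shortest of the 14 protein models. MT_atp6 (bases 17020 to 17718) has 699 bases or 233 codons. The genes are not next to each other. MT_cox1, a subunit of cytochrome c oxidase (bases 15433 to 16968), lies between them, and 1607 bases separate the end of MT_atp8 from the start of MT_atp6. The gaps are 61 bases from MT_nad3_0 to MT_atp8, 20 bases from MT_atp8 to MT_cox1, 51 bases from MT_cox1 to MT_atp6 and 206 bases from MT_atp6 to MT_cox3. Neither gene overlaps another model. The table gives no strand, exons or untranslated regions.

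**Figure D1:**
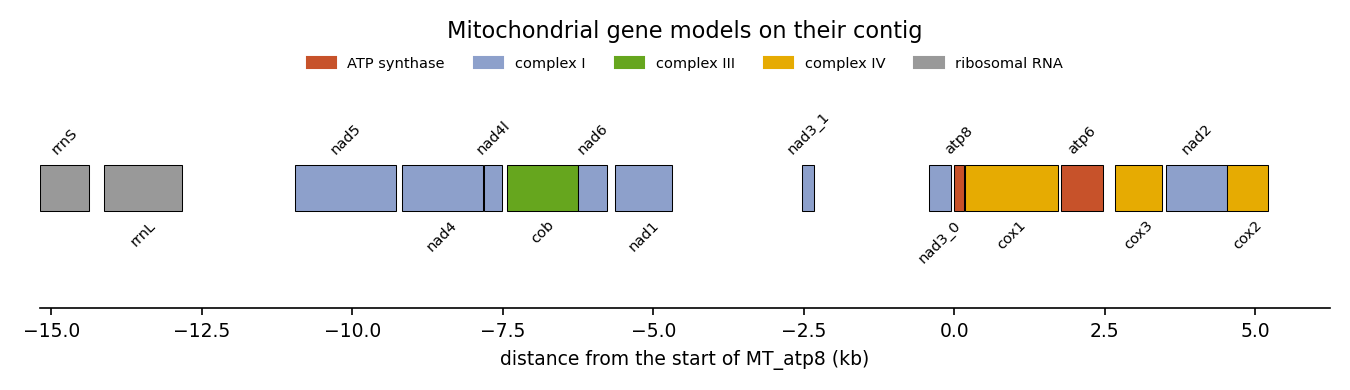
Order of the 16 mitochondrial gene models on their contig, drawn to scale against the distance in kilobases from the start of MT_atp8. Bars are gene models coloured by respiratory complex or as ribosomal RNA, and MT_cox1 separates the 2 ATP synthase genes.

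Library totals were 4738221 to 7805888 counts in the statoblast series and 14787598 to 26089274 counts in mature colonies. At these depths both genes were far above the counting limit, with at least 22214 counts for MT_atp6 and 4656 counts for MT_atp8 in every library. Values are given as CPM, counts scaled to a fixed library total. The table pairs names only with mitochondrial models, so the labelled tissues were not checked against cell type markers. Mitochondrial protein genes took 4.44% to 5.93% of counts in the statoblast series and 8.66% to 14.4% in mature colonies. Counts with fractions other than 0.5 made up 6.29% to 7.72% of models in the statoblast series and 26.6% to 32.2% in mature colonies. Depth and these fractions thus moved with the groups, and their part in the results was not tested.

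Both ATP synthase transcripts were scarcer in statoblasts than in mature colonies, and MT_atp6 had the lowest log2 fold change of the 14 mitochondrial protein genes, a ranking for which differences between genes were not tested. MT_atp6 had 3963 CPM right after thawing, then 4858, 5237 and 4938 CPM on days 2, 4 and 6. In mature colonies it stood at 16001 and 10412 CPM in edge zone replicates 2 and 3, 17358 and 20116 CPM in central zone replicates 1 and 2, 17088 and 11074 CPM in end part replicates 1 and 3, and 19773 and 11308 CPM in middle part replicates 2 and 3. The stages lay close together, and even the lowest mature library was 1.99 times above the highest stage. The means were 4749 ± 548.6 CPM (SD, n = 4 stages) and 15391 ± 3941 CPM (SD, n = 8 libraries of 4 pieces). MT_atp6 ranked 2 or 3 of all models by counts in every mature library and 10 to 18 in the statoblast series.

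MT_atp8 had 880.7 CPM right after thawing, then 1081, 857.6 and 857.2 CPM on days 2, 4 and 6. In mature colonies it had 1968 and 1259 CPM in edge zone replicates 2 and 3, 3117 and 3031 CPM in central zone replicates 1 and 2, 2917 and 1477 CPM in end part replicates 1 and 3, and 3260 and 1253 CPM in middle part replicates 2 and 3. Again the sets did not overlap, but the gap was narrow, because middle part replicate 3 was only 1.16 times above day 2. The means were 919.1 ± 108.5 CPM (SD, n = 4) in the statoblast series and 2285 ± 884.1 CPM (SD, n = 8) in mature colonies. By counts it ranked 163 to 185 of all models in the statoblast series and 28 to 137 in mature libraries.

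**Figure D2:**
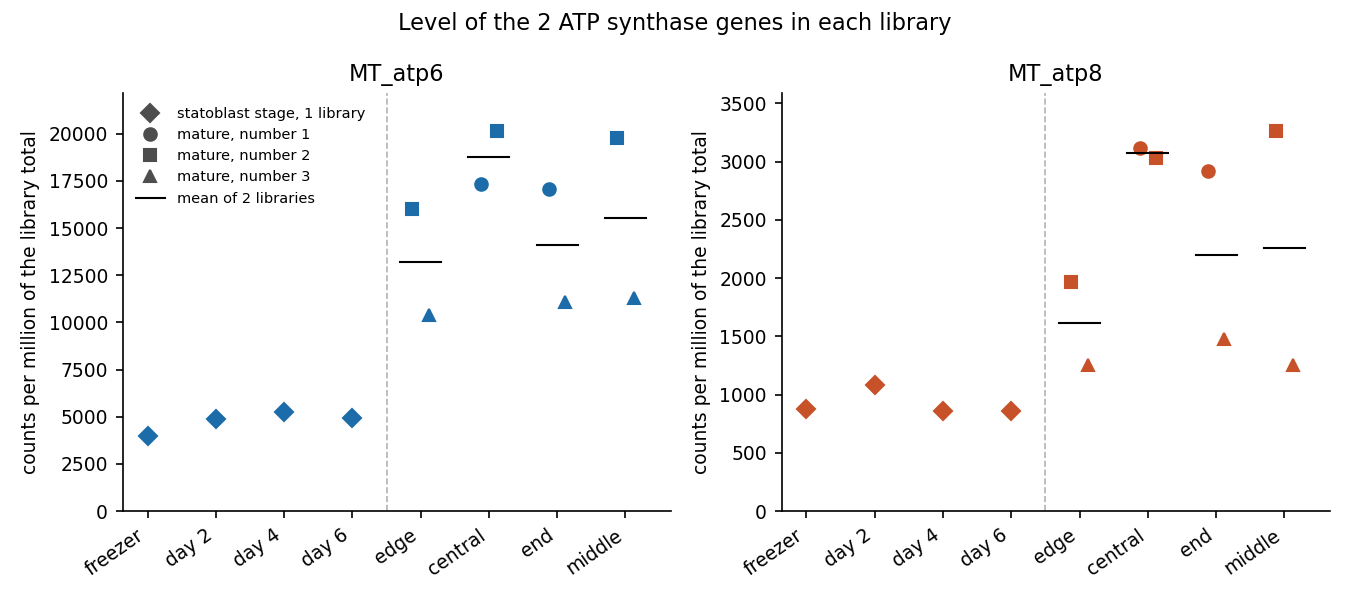
CPM for MT_atp6 (left) and MT_atp8 (right), with 1 point per library. Diamonds are the 4 statoblast stages, circles, squares and triangles are mature libraries numbered 1, 2 and 3 in their titles, and bars are means of 2 libraries; every statoblast library lies below every mature library.

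Both genes were lower in the statoblast series than in mature colonies in edgeR's quasi-likelihood test over all models. In this test a fold change is set against the spread among stages and among pieces of colony. The log2 fold change of MT_atp6 was -2.25 (SE 0.30, edgeR adjusted p = 1.11e-05) and that of MT_atp8 was -1.86 (SE 0.34, edgeR adjusted p = 0.00016). These 2 of 2 calls stand against a background in which 48.2% of the 17896 models tested were called lower, so such a call was common. The CPM ranges of 33.5% of models lay wholly below those of mature colonies, as did those of both genes. Over all models the log2 fold changes had a median of -0.62 with TMM scaling and -0.09 with library totals alone, which called 40.3% of models lower. Relative to the median of each scaling, MT_atp6 was at -1.63 on the log2 scale with TMM and -1.61 with library totals alone. MT_atp8 was at -1.24 and -1.23 in the same order. The log2 fold changes themselves, with library totals alone, were -1.69 for MT_atp6 and -1.31 for MT_atp8.

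The other 12 mitochondrial protein genes were lower in the statoblast series as well, and 12 of 12 were called. Their log2 fold changes ran from -1.99 to -1.19. The genes of complex I, the NADH dehydrogenase, had a median of -1.54 over 8 models, and those of complex IV, the cytochrome c oxidase, a median of -1.68 over 3 models. The single gene of complex III, MT_cob, had -1.49. The lowest value after that of MT_atp6 was -1.99 for MT_nad4, and MT_atp8 ranked 4 from the lowest, after MT_cox3. MT_atp6 had the lowest value of the 14 in all 21 settings tried that kept the other mitochondrial genes, whereas the place of MT_atp8 varied from 3 to 5. Among all models, 33% of those tested had a lower log2 fold change than MT_atp6 and 36.1% a lower one than MT_atp8. The mitochondrial ribosomal RNAs, which lie on the same contig, were not called (edgeR adjusted p = 0.225 for MT_rrnS and 0.537 for MT_rrnL).

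**Figure D3:**
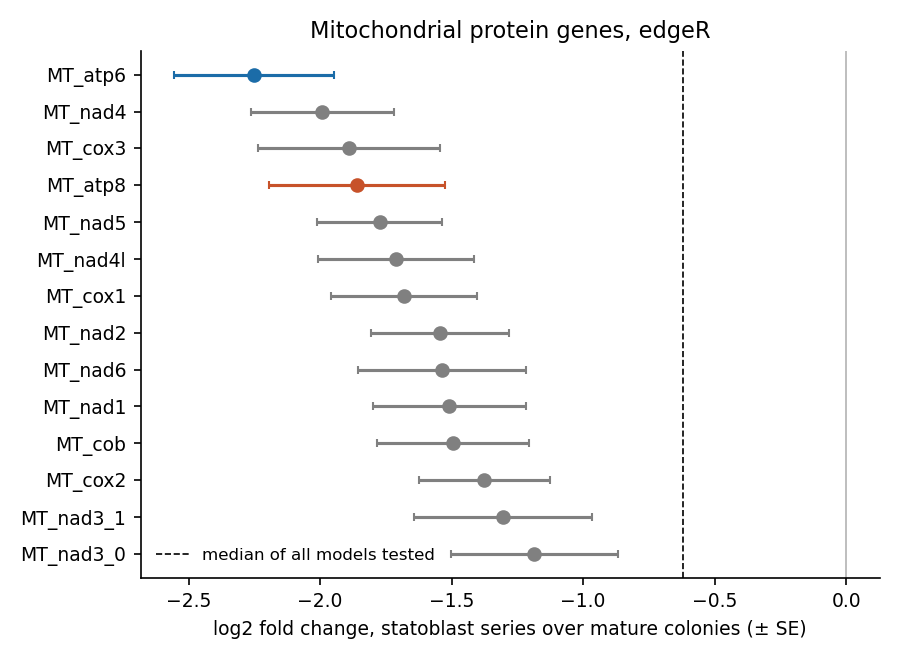
Log2 fold change of the 14 mitochondrial protein genes, statoblast series over mature colonies, with the standard error as horizontal bars (edgeR, 4 against 8 libraries). The dashed line is the median of all models tested at -0.62; MT_atp6 (blue) is the lowest at -2.25 and MT_atp8 (orange) is at -1.86.

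The share of mitochondrial protein counts needs no scaling between libraries, and by this measure MT_atp6 passed the test and MT_atp8 did not; their ratio, given further on, bears on the difference between them. MT_atp6 held 8.92% of the counts of the 14 genes right after thawing (95% Wilson interval 8.81 to 9.03), then 8.65%, 8.83% and 9.12% on days 2, 4 and 6 (intervals 8.55 to 8.76, 8.73 to 8.93 and 9.04 to 9.21). These intervals cover counting error only. In mature colonies its share was 13.1% and 11.8% at the edge, 12.1% and 14.02% in the centre, 12.6% and 12.8% at the ends, and 13.7% and 12.8% in the middle. The stages kept within a narrow band below all mature libraries. The means were 8.88% ± 0.196 (SD, n = 4) and 12.9% ± 0.762 (SD, n = 8), a difference of -3.99 percentage points (two-sided exact permutation test, p = 0.00404, which is the smallest possible; adjusted p = 0.0162 over 8 such tests; lower in 4 of 4 stages). Without the 3 libraries numbered 3 the difference was -4.23 points, again with 4 of 4 stages below all mature libraries. With 4 against 5 libraries the smallest possible p is 0.0159, and the exact permutation test's adjusted p was 0.0635.

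The share of MT_atp8 did not pass the test. It was 1.98%, 1.93%, 1.45% and 1.58% from the freezer library to day 6. In mature colonies it was 1.62% and 1.42% at the edge, 2.17% and 2.11% in the centre, 2.15% and 1.71% at the ends, and 2.26% and 1.42% in the middle. The stages lay wholly inside the mature range. The means were 1.73% ± 0.261 (SD, n = 4) in the statoblast series and 1.86% ± 0.353 (SD, n = 8) in mature colonies, a difference of -0.12 percentage points (exact permutation test, two-sided, p = 0.541; adjusted p = 0.541).

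**Figure D4:**
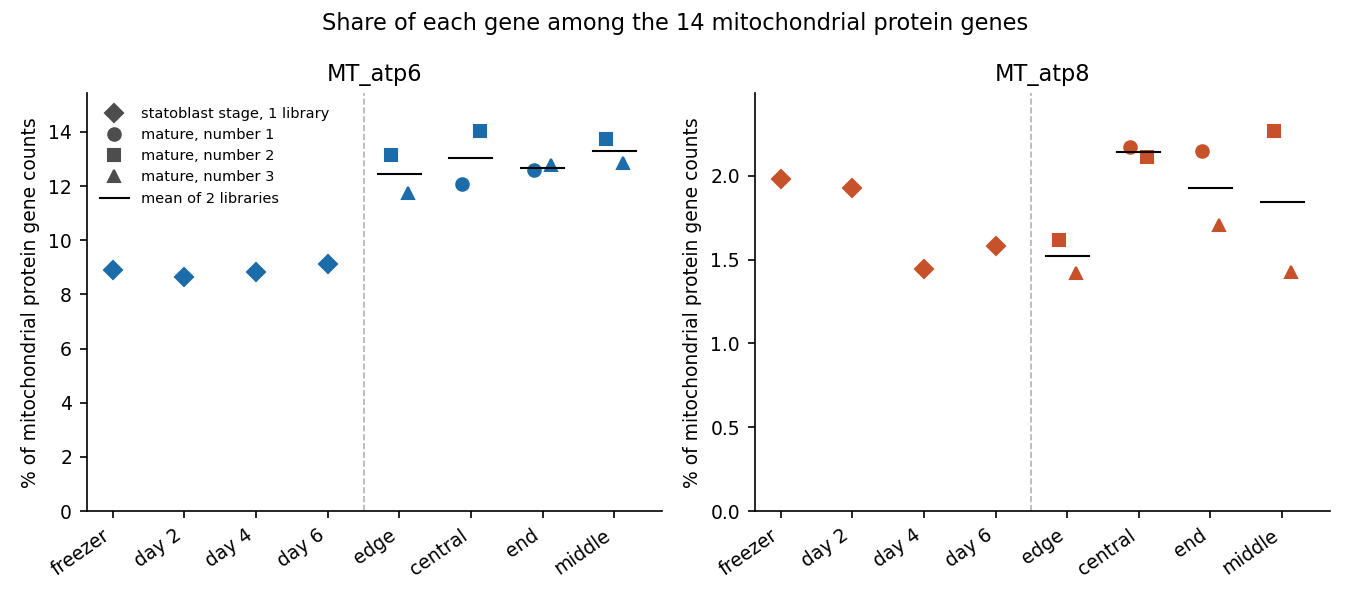
Percentage of the counts of all 14 mitochondrial protein genes that fell on MT_atp6 (left) and MT_atp8 (right), with 1 point per library and bars for means of 2 libraries. MT_atp6 lies between 8.65% and 9.12% in the 4 stages and between 11.8% and 14.02% in the 8 mature libraries, while the MT_atp8 ranges overlap.

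As a pair, the genes held 10.6% ± 0.263 (SD, n = 4) of mitochondrial protein counts in the statoblast series and 14.7% ± 0.960 (SD, n = 8) in mature colonies. The difference was -4.11 percentage points, against -3.99 for MT_atp6 alone (two-sided exact permutation test, p = 0.00404, again the smallest possible; adjusted p = 0.0162). Without the libraries numbered 3 it was -4.56 points (exact permutation test, adjusted p = 0.0635). Complex I held 30.6% ± 1.69 and 29.6% ± 1.86 in the same order, complex III 14.2% ± 0.407 and 12.2% ± 0.558, and complex IV 44.6% ± 1.45 and 43.5% ± 1.94 (SD, n = 4 and 8). Of the 14 genes, 2 had shares that lay wholly below the mature range, MT_atp6 and MT_nad4, and 3 had shares wholly above it, MT_cob, MT_cox2 and MT_nad3_0. The ratio of mean shares was 0.690 for MT_atp6, against 0.813 to 1.49 for the other 13 genes, MT_atp8 being at 0.934. Shares within a library sum to a whole, so a lower share of 1 gene raises the others.

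Per base, MT_atp6 ranked 3 to 5 among the 14 mitochondrial protein genes in the stages and 1 in every mature library. It averaged 6794 CPM per kilobase in the statoblast series, where MT_cox2, MT_cox1 and MT_cox3 averaged 9208, 7699 and 7527 CPM per kilobase. In mature colonies it averaged 22019 CPM per kilobase, ahead of MT_cox3 at 18941 CPM per kilobase. MT_atp8 averaged 5673 CPM per kilobase in the statoblast series and 14106 CPM per kilobase in mature colonies, and ranked 5 or 6 in the stages and 3 to 7 in mature libraries. Against MT_cox1, its neighbour at lower coordinates, MT_atp6 had 82.8 to 100.5 counts per base for every 100 of MT_cox1 in the stages and 102.7 to 160.8 in mature libraries. Against MT_cox3, its neighbour at higher coordinates, it had 86.8 to 94.1 for every 100 of MT_cox3 in the stages and 106.1 to 148.7 in mature libraries. Neither pair of ranges overlapped. Against MT_nad4, which is not a neighbour, the ranges did overlap. There MT_atp6 had 283.9 to 306.4 for every 100 of MT_nad4 in the stages and 295.1 to 399.6 in mature libraries.

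Each stage was also set against the 8 mature libraries by itself, with the lone library assumed to vary like the mature ones, so no stage has a replicate check. MT_atp6 was called lower at each stage than in mature colonies. Its log2 fold change was -2.74 in the freezer library (SE 0.63, edgeR adjusted p = 0.00291) and -2.46 at day 2 (SE 0.62, edgeR adjusted p = 0.0052). It was -2.21 at day 4 (SE 0.61, edgeR adjusted p = 0.00979) and -2.21 at day 6 (SE 0.61, edgeR adjusted p = 0.00932). In these comparisons 44.2%, 41.7%, 34.6% and 34.1% of the 19807 models tested were called lower. The median of all models was -1.35, -1.16, -0.70 and -0.54 in the same order. Relative to it, MT_atp6 was at -1.40, -1.297, -1.50 and -1.67 on the log2 scale.

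MT_atp8 was called lower at each stage too, at -2.14, -1.86, -2.05 and -1.97 from the freezer library to day 6 (edgeR adjusted p = 0.0175, 0.0321, 0.025 and 0.0279). All 4 calls were lost with library totals alone, at -1.38, -1.08, -1.41 and -1.41 (edgeR adjusted p = 0.0664, 0.132, 0.0678 and 0.0659). The call at day 2 was also lost without central zone replicate 2, at -1.64 (edgeR adjusted p = 0.0572). Of the other 12 protein genes, 10 were called lower in the freezer library, 10 at day 2, 8 at day 4 and 10 at day 6, and 0 higher. The 2 ribosomal RNAs were called lower in the freezer library, with a median log2 fold change of -3.80, and at no later stage; the part of this in the values of the ATP synthase genes was not tested.

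Within the statoblast series neither gene had a slope over the days that passed the test, with the freezer library coded as day 0. The slope was 0.05 log2 per day for MT_atp6 (SE 0.05, edgeR adjusted p = 0.509) and -0.03 for MT_atp8 (SE 0.05, edgeR adjusted p = 0.781). Here 10.1% of 9887 models were called in either direction, a count of 999 that dropped to 4 models without the freezer library, 463 without day 4 and 525 without day 6. Neither gene had an unadjusted p under 0.05, and neither was called by the DESeq2 Wald test or limma-voom. From the freezer library to day 2 both genes differed by the same factor, with CPM ratios of 1.23 for MT_atp6 (95% counting interval 1.203 to 1.249) and 1.23 for MT_atp8 (1.18 to 1.28). From day 2 to day 4 they parted, at 1.078 for MT_atp6 (1.06 to 1.097) and 0.793 for MT_atp8 (0.762 to 0.826). From day 4 to day 6 the ratios were 0.943 for MT_atp6 (0.929 to 0.958) and 0.9995 for MT_atp8 (0.963 to 1.04). These are ratios of single libraries with no replicate, and the intervals cover counting error only.

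The number of MT_atp8 counts for every 100 of MT_atp6 shows that step directly. It was 22.2 in the freezer library, 22.3 at day 2, 16.4 at day 4 and 17.4 at day 6. In mature colonies it was 12.3 and 12.1 at the edge, 18.0 and 15.1 in the centre, 17.1 and 13.3 at the ends, and 16.5 and 11.1 in the middle. The freezer and day 2 libraries lay above every mature library, and the day 4 and day 6 libraries lay within the mature range. The mean log2 ratio of MT_atp8 to MT_atp6 was -2.37 ± 0.233 (SD, n = 4) in the statoblast series and -2.81 ± 0.260 (SD, n = 8) in mature colonies, a difference of 0.45 that did not pass (exact permutation test, two-sided, p = 0.0283; adjusted p = 0.0754). Without central zone replicate 1 the difference was 0.49 and passed (exact permutation test, adjusted p = 0.0485), in 1 of 14 alternatives. The other 13 did not pass. Over all 14 the difference ran from 0.31 to 0.53, with an adjusted p of up to 0.296 in the exact permutation test.

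**Figure D5:**
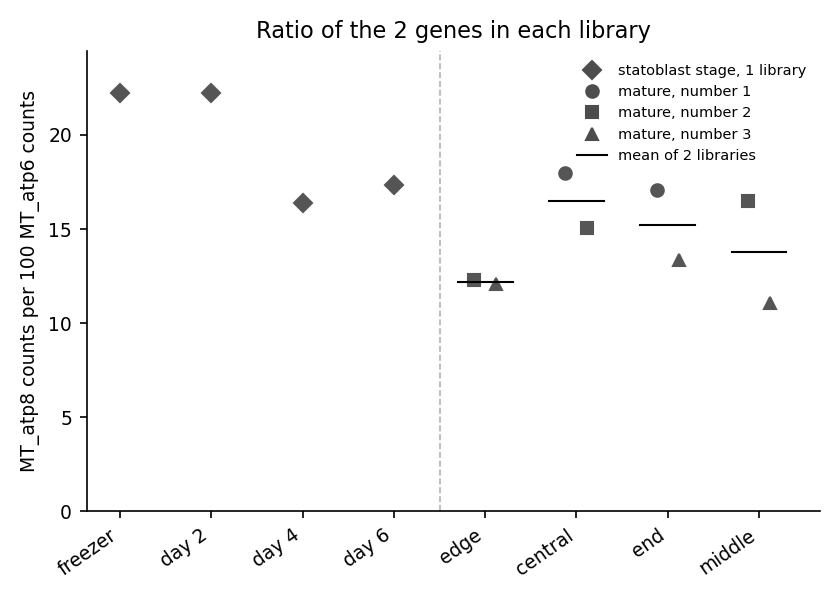
MT_atp8 counts per 100 MT_atp6 counts in each of the 12 libraries, with bars for means of 2 libraries. The freezer library (22.2) and day 2 (22.3) lie above the mature range of 11.1 to 18.0, and day 4 (16.4) and day 6 (17.4) lie inside it.

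Among the pieces of mature colonies neither gene passed a test. The first comparison set the edge of a colony against its centre. MT_atp6 averaged 13207 ± 3952 CPM at the edge, against 18737 ± 1950 CPM in the centre (SD, n = 2 each), with a log2 fold change of -0.11 with TMM scaling (SE 0.37, edgeR adjusted p = 0.858). MT_atp8 averaged 1613 ± 501.3 CPM at the edge, against 3074 ± 60.7 CPM in the centre (SD, n = 2 each). At -0.52 on the log2 scale (SE 0.44, edgeR adjusted p = 0.411) it had the lowest value of the 14 protein genes. Neither gene was called, against 23.7% of 18085 models, and with TMM neither had an unadjusted p under 0.05 in edgeR, nor in the DESeq2 Wald test or limma-voom. The CPM ranges of both genes lay wholly lower at the edge, as did those of 48.2% of models. The median of all models was -0.42 with library totals alone and -0.01 with TMM, and the share of higher among all calls was 19.0% and 53.9%. Library totals alone gave -0.50 for MT_atp6 and -0.93 for MT_atp8 (edgeR adjusted p = 0.189 and 0.084), and the unadjusted edgeR p of MT_atp8 was then 0.0289. Leaving out 1 library at a time moved the value of MT_atp8 between -0.96, without edge zone replicate 2, and -0.18, without edge zone replicate 3.

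The second comparison set the ends of elongated colonies against their middle. MT_atp6 averaged 14081 ± 4253 CPM at the ends and 15541 ± 5986 CPM in the middle (SD, n = 2 each; log2 fold change -0.21, SE 0.37, edgeR adjusted p = 0.846). MT_atp8 averaged 2197 ± 1018 CPM at the ends and 2256 ± 1419 CPM in the middle (SD, n = 2 each; log2 fold change -0.12, SE 0.44, edgeR adjusted p = 0.932). The ranges of both genes overlapped, while those of 44.9% of models did not. Of all models 0.343% were called here. The change at the edge minus the change at the ends was 0.10 for MT_atp6 (SE 0.52, edgeR adjusted p = 0.917) and -0.40 for MT_atp8 (SE 0.62, edgeR adjusted p = 0.7). With TMM 2.18% of models were called for this difference, 21.3% of them higher. Library totals alone called another set of models, of which 3.61% were higher. Neither gene had an unadjusted p under 0.05 in any of the 3 tools in these comparisons.

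Both outer pieces, edge and end, were then set against both inner pieces, centre and middle. Here MT_atp6 averaged 13644 ± 3389 CPM in outer and 17139 ± 4076 CPM in inner pieces (SD, n = 4 each; log2 fold change -0.16, SE 0.26, edgeR adjusted p = 0.737). MT_atp8 averaged 1905 ± 736.8 CPM in outer and 2665 ± 946.2 CPM in inner pieces (SD, n = 4 each; log2 fold change -0.32, SE 0.31, edgeR adjusted p = 0.538). Neither was called, against 14.6% of models, and the CPM ranges of both overlapped, unlike those of 4.71% of models. Among all calls 59.9% were higher with TMM and 32.7% with library totals alone. Neither gene had an unadjusted p under 0.05 in any of the 3 tools. The shares of mitochondrial protein counts were 12.6% ± 0.585 in outer and 13.2% ± 0.877 in inner pieces for MT_atp6, and 1.72% ± 0.307 and 1.99% ± 0.385 for MT_atp8 (SD, n = 4 each; exact permutation test, two-sided, p = 0.257 and 0.343, where 0.0286 is the smallest p possible). With 2 against 2 libraries such a test cannot go below 0.3333 and was not run. In order of mean CPM the pieces ranked central, middle, end and edge for both genes. Neighbouring pieces in that order overlapped in each case. The edge zone lay wholly above the highest stage, day 4 for MT_atp6 and day 2 for MT_atp8, each stage being 1 library.

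The number in a library's title moved with both genes. The 3 libraries numbered 3 stood at 10412 to 11308 CPM for MT_atp6, and the other 5 mature libraries at 16001 to 20116 CPM. For MT_atp8 the values were 1253 to 1477 CPM in the libraries numbered 3 and 1968 to 3260 CPM in the other 5. Mitochondrial protein genes as a whole took 8.66% to 8.85% of counts in the libraries numbered 3, where all other mature libraries had at least 12.2%. The labels do not say what the number stands for, and the central zone has no library numbered 3. In the libraries numbered 2, MT_atp6 had 16001 CPM at the edge, against 20116 CPM in the centre, and MT_atp8 had 1968 CPM at the edge, against 3031 CPM in the centre. In those numbered 3, MT_atp6 stood at 11074 CPM at the ends and 11308 CPM in the middle, and MT_atp8 at 1477 and 1253 CPM. With TMM scaling and a term for the libraries numbered 3, the edge-to-centre log2 fold change was 0.23 for MT_atp6 (edgeR adjusted p = 0.613) and -0.02 for MT_atp8 (edgeR adjusted p = 0.968). TMM scaling without that term had given -0.11 and -0.52. The CPM values above use library totals, with which the median of all models at the edge was -0.42, against -0.01 with TMM. The parts of scaling and of the library number were not tested.

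Among mature libraries the genes also differed in how steady they were. The share of MT_atp6 in mitochondrial protein counts had a coefficient of variation of 5.92% over the 8 libraries and that of MT_atp8 of 19.0%, the most variable of the 14 genes after MT_nad3_1 at 19.4%. In CPM the coefficients were 25.6% and 38.7%. MT_atp8 and MT_nad3_1, of 198 bases, are also the shortest models. MT_nad3_0, of 354 bases, had the next highest coefficient at 17.6%. The longest model, MT_nad5 of 1691 bases, had 15.9%, and MT_nad4l, of 303 bases, had 10.8%. The part of model length in this spread was not tested.

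Likeness between profiles was measured as the root mean square difference of centred log2(CPM + 0.5) values over the 12 libraries, among 9047 other models with a mean of at least 10 CPM. The profile most like that of MT_atp6 was MT_nad4, at 0.16 on the log2 scale, followed among mitochondrial genes by MT_cox3 at 0.24. MT_atp8 ranked 14 of all models, at 0.31. The profile most like that of MT_atp8 was MT_cox3, at 0.19, then MT_nad6 at 0.27, with MT_atp6 at rank 6. The median over all models was 1.37 for MT_atp6 and 1.27 for MT_atp8. In the 8 mature libraries alone, the closest mitochondrial profiles were MT_cob (0.08) and MT_nad1 (0.10) for MT_atp6, and MT_cox3 (0.19) and MT_nad6 (0.19) for MT_atp8.

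Outside the mitochondrial contig the closest model to MT_atp6 was g2130 (contig 26, bases 3728955 to 3732376), at rank 2 of all models and 0.17. It stood at 32.1, 38.4, 43.7 and 42.3 CPM from the freezer library to day 6 and at 95.6 to 146.4 CPM in mature colonies. The closest to MT_atp8 was g5143 (contig 8, bases 4522109 to 4533084), at rank 9 and 0.35, with 5.53 to 9.16 CPM in the stages and 10.1 to 22.6 CPM in mature colonies. The files pair neither with a gene name. All profiles share the library totals as divisor, so such values are descriptions of these libraries.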

How the data were processed

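The table of expected counts per gene model was used as the authors deposited it; the values are not normalized, and fractions were seen in them. The submitters' processing notes name HISAT2 2.1.0 and featureCounts 1.5.1. Genome build, annotation, strand setting and the treatment of shared reads are not stated in the sources used here. A directional kit was used, with paired-end and single-end runs on different instruments, per the labels' protocols, which do not assign libraries to runs. They also give 2 biological replicates for each sample, although a statoblast stage has 1 library in the table.

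Columns were matched to titles, which also give the replicate numbers. Libraries of a group differed by more than counting noise (chi-square of 38.8 to 67.1 per model). Counts were rounded to whole numbers, changing no total by more than 0.00408%. The main test was edgeR 4.0.16 (R 4.3.3) with filterByExpr, TMM scaling and the quasi-likelihood F test, adjusted by Benjamini-Hochberg over all models at 0.05. SE means the size of the log2 fold change over the square root of F and is not given by edgeR itself. Fits covered 4 group means over the 8 mature libraries, 2 groups over 12 libraries, 5 groups (mature and each stage) and the slope over 4 stages. Values within libraries were compared by exact permutation tests (scipy 1.17.1). Alternatives were library totals, DESeq2 1.42.0, limma-voom (limma 3.58.1), no filter, models left out, libraries left out, a replicate block and a term for libraries numbered 3. A floor of 3 counts equals 0.115 to 0.633 CPM. The fits were tested on simulated data. Python 3.11.15, numpy 2.4.6, pandas 2.3.3 and matplotlib 3.10.9 were used.

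The genes, lists, tests and naming rule were chosen with earlier results of these data known. The text names both genes, other mitochondrial models by complex, neighbours on the contig, extremes among the 14 genes, and the closest profiles (2 mitochondrial models and 1 other for each gene). No nuclear ATP synthase gene or cell type marker could be matched, because other models carry no names, and no sequence was read.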

Additional observations from a re-analysis of the deposited data

Results flagged for a closer look

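Within sets of 4 or 8 libraries, the highest and lowest value of each gene's CPM, of its share and of the ratio of both genes were checked for a large gap to the next library. Of 20 such sets, 2 held a value that stood apart; chance marks about 1 set in 20. MT_atp8 at day 2, at 1081 CPM, stood above the other stages, which lay between 857.2 and 880.7 CPM. The stages are different conditions, not replicates. MT_atp8 in middle part replicate 3, at 1253 CPM, stood below the other inner libraries, which lay between 3031 and 3260 CPM. This library is the only inner one numbered 3, and both outer libraries of that number were also low, at 1259 and 1477 CPM. What the number stands for was not tested.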

How the results depend on the processing

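Both genes remained called lower in the statoblast series in all 21 alternatives each, at -2.54 to -1.69 for MT_atp6 and -2.23 to -1.31 for MT_atp8 (edgeR, DESeq2 or limma adjusted p up to 8.48e-05 and 0.00143). Of 454 alternatives over 28 results, 420 kept direction and call. The causes of the changes below were not tested. Library totals alone ended the MT_atp8 calls at the freezer stage (-1.38), day 2 (-1.08), day 4 (-1.41) and day 6 (-1.41). Leaving out the libraries numbered 3 left share differences of -4.23 points for MT_atp6 and -4.56 for both genes, uncalled after adjustment with fewer libraries. It turned the log2 fold change to 0.23 for MT_atp6 at the edge, and to 0.11 for MT_atp8 in the difference between dissections. A term for that number gave 0.23 for MT_atp6 at the edge and 0.032 for outer against inner pieces. Library totals turned the MT_atp6 difference between dissections to -0.36, and limma-voom gave 0.00023 for MT_atp8 at the ends. Deviations of same-numbered libraries from their group means correlated at -0.13 to 0.27. With 2 libraries per group the deviations mirror each other, so this check cannot decide whether libraries of 1 number belong together. No label states a pairing, so the block was not used beside the results. A replicate block gave 0.12 for MT_atp6 and -0.083 for MT_atp8 at the edge, 0.027 and 0.086 for MT_atp6 and MT_atp8 at the ends, and 0.074 and 0.0015 in outer pieces, none called. Leaving out 1 library at a time gave, for MT_atp6, -0.53 to 0.23 at the edge, -0.60 to 0.33 at the ends, -0.49 to 0.50 for their difference and -0.37 to 0.085 in outer pieces. For MT_atp8 it gave -0.96 to -0.18 at the edge, -0.68 to 0.82 at the ends, -1.39 to 0.17 for the difference, -0.60 to 0.12 in outer pieces and -1.93 to -1.64 at day 2. The difference in mean log2 ratio of MT_atp8 to MT_atp6, statoblast series minus mature colonies, ranged from 0.38 to 0.53 (0.31 at the lowest over all 14 alternatives). The slopes per day ranged from 0.0041 to 0.099 for MT_atp6 and -0.085 to -0.0065 for MT_atp8, and the outer-minus-inner shares from -0.964 to -0.321 and -0.460 to -0.170 points. Numbers of models called moved too: 842 (without edge zone replicate 2; 1554 without central zone replicate 1) to 5100 at the edge, against 4290, and 35 (without middle part replicate 3) to 1079 (without end part replicate 3) at the ends, against 62 (131, 132 and 36 without central zone replicates 1 and 2 and middle part replicate 2; 300 by DESeq2, 681 with no filter, 103 with the block). They were 36 (without edge zone replicate 2) to 2944 (without end part replicate 3) for the difference, against 394 (over 1.5 times away whichever of the 8 libraries was left out; 1413 with library totals, 1504 by DESeq2, 261 by limma-voom, 2217 with no filter). They were 1139 (without middle part replicate 2; 1199 and 1734 without edge zone replicate 2 and middle part replicate 3) to 4389 (replicate block) in outer pieces, against 2648, and 4 (without the freezer library) to 1291 for the slope, against 999.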
